A study of Mus musculus with 32 samples.

Results

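The genes that license replication origins and build the replication fork were followed across a mouse series of ovarian cancer. The set holds 43 genes in 10 role groups, from the origin recognition complex to the enzymes that supply thymidine, and was chosen by symbol from the known composition of the fork. All 43 were found among the 55450 genes of the count table, and all 43 passed the filter on low counts in every fit. Total RNA of 26 tumours and 6 normal tissues was sequenced, 1 library per sample. Every tumour model combines loss of Brca1, an altered Trp53 and K18GT121, a transgene that the series describes as inhibiting Rb. The models differ in how and where Cre was delivered, and tumours were taken at endpoint, several months after induction.

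OSE-BPR tumours arose in FVB females with K18GT121 Tg/+ and the floxed alleles Brca1 fl/fl and Trp53 fl/fl, after adeno-Cre was injected below the ovarian bursa (3 primary tumours, 5 allografts). Ad-BPR tumours arose in C57Bl/6 females of the same genotype whose oviducts received adeno-Cre (2 primary, 4 allografts). Pax8-BPR females (C57Bl/6) carried the same alleles with Pax8-CreERT2 Tg/+, in which tamoxifen activates Cre in secretory cells of the oviduct (4 primary, 2 allografts). Ovgp1-BPR females (C57Bl/6) carried, by the sample labels, Brca1 fl/fl, K18GT121 Tg/+, Ovgp1-CreERT2 Tg/+ and the knock-in Trp53 KozR172H ki/+, again with tamoxifen and oviduct secretory cells as the target (3 primary, 3 allografts). The series text gives that model Trp53 fl/fl and an Ovgp1-iCreERT2 driver instead, beside a mutant Trp53. Primary tumours are called GEMM, for genetically engineered mouse model. The donors and hosts of the allografts are not given in the sources used here, nor are the ages of the animals. The reference tissues were whole ovary and whole oviduct of the same 3 wild-type C57Bl/6 females. OSE-BPR tumours were therefore set against ovary of another strain, so strain and tumour cannot be told apart there.

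Before a cell can copy its DNA, the origin recognition complex (ORC) binds origins and, with Cdc6 and Cdt1, loads the ring-shaped MCM helicase in an inactive form. This step is called licensing, and geminin, a binding partner of Cdt1, blocks it once S phase has begun. Mcm10, Cdc45 and the GINS complex then switch the helicase on, polymerase alpha-primase lays down primers, polymerases epsilon and delta extend them on the sliding clamp PCNA, and Fen1, Dna2 and Lig1 join the lagging-strand pieces. Many of these genes are transcribed under E2F factors, which Rb restrains.

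Library totals ran from 13.99 to 20.51 M counts, with a median of 17.43 M. Levels are given as CPM (counts scaled to the library total, with TMM factors) when 1 gene is compared between libraries, and as TPM, which corrects for gene length, when genes are compared with each other. The tissue labels held: the 10 granulosa, theca and luteal markers summed to 10700 to 12400 CPM in ovaries, and the 5 oviduct secretory markers to 5600 to 12600 CPM in oviducts, against 22.4 to 24.2 CPM in ovaries. A pair of normal oviducts stood apart. Replicates 1 and 3 held 131 and 114 CPM over 8 oocyte markers, whereas replicate 2 held 5.25 CPM and the ovaries 374 to 415 CPM. Counts and medians over the set, and lists, that rest on the oviduct are therefore given with and without these replicates. So are the genes whose change over normal tissue moved by more than 1.5 times. Counts of oviduct against ovary without these replicates are left out. Values in TPM and medians over role or promoter groups are given with all oviducts only. The Ad-BPR allografts fell into pairs, replicates 1 and 2 with 5440 and 6190 CPM of oviduct secretory markers and replicates 3 and 4 with 775 and 716 CPM; the sums of the 43 genes were 3177 and 3123 CPM in the first pair and 4561 and 4666 CPM in the second. The sources used here do not state whether counting used strand, so reads of members whose exons overlap a gene on the opposite strand could come from either gene: Gins2 (2758 shared bases with Gse1), Fen1 (1909 with Gm10143), Orc2 (1150 with Nif3l1), Rfc2 (952 with Lat2), Rfc5 (499 with Wsb2), Orc4 (446 with Acvr2a), Orc1 (376 with Gm12743), Mcm7 (321 with Ap4m1), Rfc4 (194 with Eif4a2) and Orc6 (171 with Vps35). The same holds for Lig1 (247 shared bases with Zswim9), Cdc45 (209 with Ufd1), Tk1 (83 with Afmid) and Pole (78 with Gm15792). In whole tissue, fewer cells of a type and less RNA per cell cannot be told apart, so a lower level here can mean either.

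The first question was which replication genes differ between a primary tumour and the organ in which it began. Most of them rose in each model. By the mean of the 4 changes, the largest were those of the thymidine kinase gene Tk1, the helicase subunit gene Mcm6 and the polymerase epsilon gene Pole. Changes are log2 fold changes ± standard error (edgeR quasi-likelihood test, Benjamini-Hochberg adjustment over all genes tested, called at an adjusted p below 0.05). In OSE-BPR GEMM tumours against ovary, 32 of the 43 genes rose and 0 fell, where 11.6% of all genes rose and 11.6% fell. In Ad-BPR GEMM tumours against oviduct, 36 rose and 1 fell, with 11.7% and 12.3% of all genes called higher and lower. In Pax8-BPR GEMM tumours against oviduct, 39 rose and 1 fell (15.9% and 16.3% of all genes). In Ovgp1-BPR GEMM tumours against oviduct, 38 rose and 0 fell (15.3% and 17.3% of all genes). The median change of the 43 genes was 1.35 in OSE-BPR, 2.02 in Ad-BPR, 2.23 in Pax8-BPR and 2.40 in Ovgp1-BPR tumours, while the median over all genes lay between -0.07 and 0.00 in these comparisons. The 3 oviduct comparisons share the same 3 normal libraries and so are not independent of each other.

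**Figure D1:**
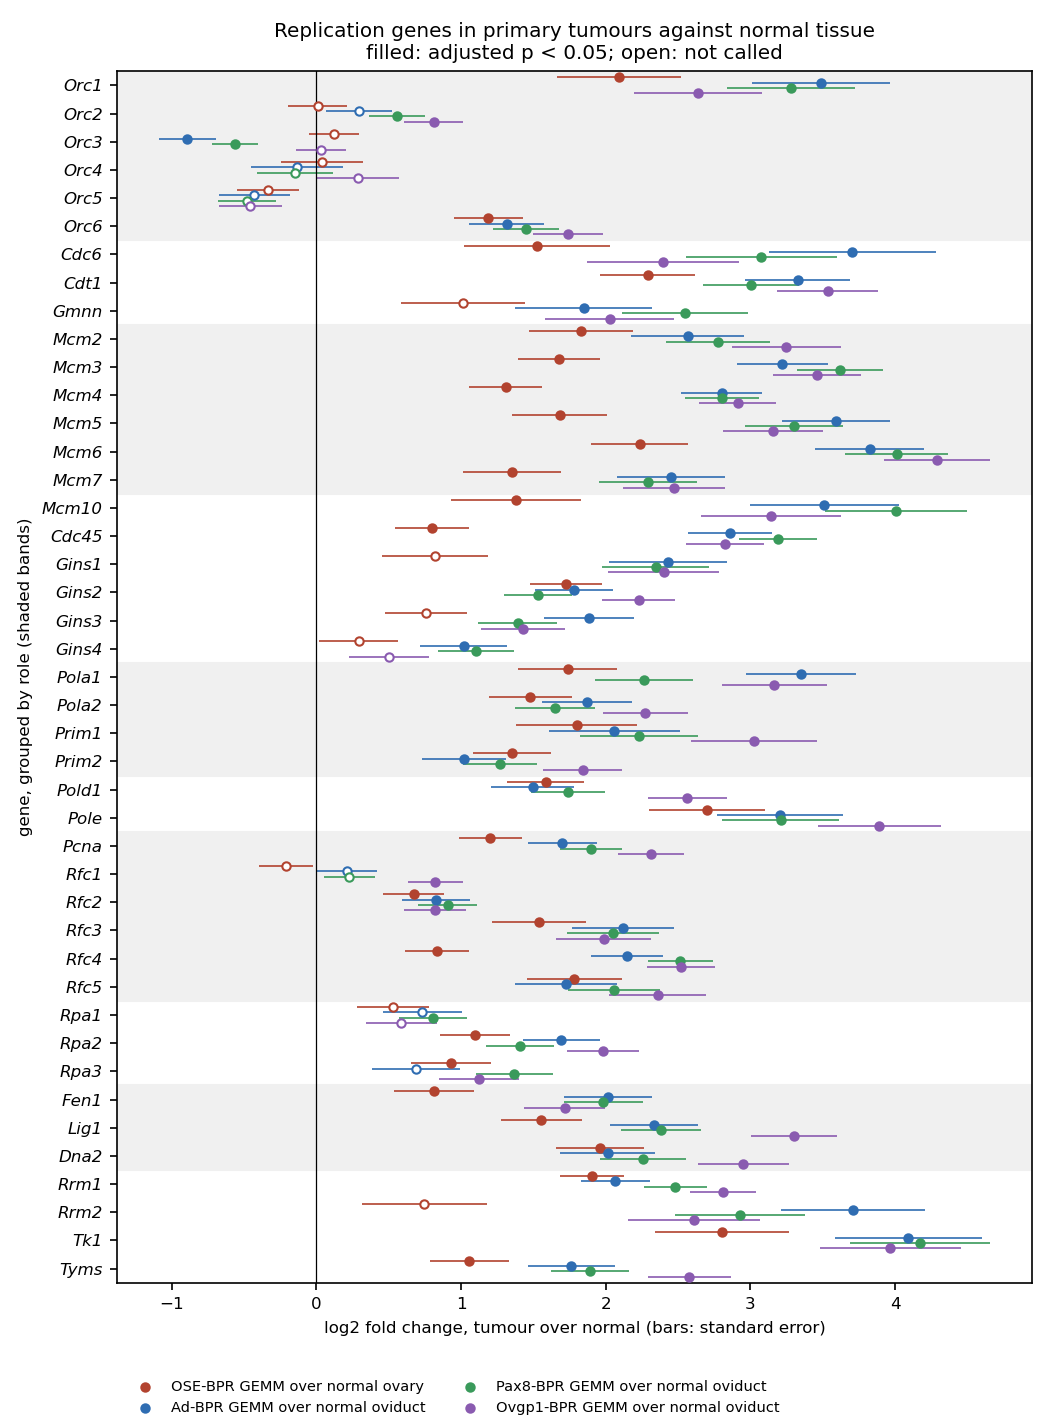
Log2 fold change of each of the 43 replication genes (rows, banded by role) in primary tumours over normal tissue, with standard errors as bars and calls as filled points. Points of most genes lie between 1 and 4, while Orc3, Orc4, Orc5 and Rfc1 lie near or below 0, apart from Rfc1 at 0.82 in Ovgp1-BPR tumours.

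Across single libraries the separation was wide. The 43 genes together took 2586 to 5452 CPM in the 26 tumours, 1391 to 1784 CPM in the ovaries and 765.9 to 963.4 CPM in the oviducts. The lowest tumour by this sum was Pax8-BPR GEMM 1, and the highest was OSE-BPR allograft 1. For 29 of the 43 genes the lowest of the 26 tumours lay above the highest of the 6 normal libraries, which was so for 1.54% of all genes tested. Among the other 14 were Orc2, Orc3, Orc4, Orc5 and Rfc1, whose tumour and normal ranges overlapped broadly. When oviduct replicates 1 and 3 were left out (an alternative chosen after the data were seen, in which the lone oviduct is assumed to vary like the other groups), 31 genes rose and 1 fell in Ad-BPR (2.77% and 3.96% of all genes), 35 rose and 0 fell in Pax8-BPR (3.96% and 6.46%), and 35 rose and 0 fell in Ovgp1-BPR tumours (3.88% and 6.4%). The median changes were then 2.29, 2.35 and 2.68.

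Leaving out these oviducts made many changes larger. The shift ran from -0.16 (Rpa1 in Ovgp1-BPR) to 2.14 (Mcm10 in Pax8-BPR) on the log2 scale, and no sign changed in these 3 comparisons. It was more than 1.5-fold for the same 10 genes in each, namely Orc1, Cdc6, Cdt1, Mcm5, Mcm6, Mcm10, Gins1, Pole, Tk1 and Rrm2, and for Mcm3 in Pax8-BPR tumours (4.23, against 3.62 with all 3 oviducts). Mcm10 then had the largest change of the set in Ad-BPR and Pax8-BPR tumours, and Mcm6 in Ovgp1-BPR tumours. Mcm5 changed by 4.43 in Ad-BPR, 4.17 in Pax8-BPR and 3.98 in Ovgp1-BPR tumours without them, against 3.59, 3.30 and 3.16 with them. Gins1, a subunit of GINS, changed by 3.48 in Ad-BPR, 3.43 in Pax8-BPR and 3.44 in Ovgp1-BPR tumours without them, against 2.43, 2.34 and 2.40 with them.

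The calls lost were on genes whose changes stayed of similar size while their standard errors grew. In Ad-BPR tumours these were Gmnn (2.09 without the 2 oviducts, against 1.85 with them), Rfc5 (1.73 against 1.73), Gins4 (1.03 against 1.02), Prim2 (1.00 against 1.02) and Rfc2 (0.80 against 0.83), with standard errors of 0.34 to 0.74 without and 0.23 to 0.47 with them. In Pax8-BPR tumours they were Gins4 (1.15 against 1.10), Rfc2 (0.92 against 0.91), Rpa1 (0.69 against 0.80), Orc2 (0.51 against 0.56) and Orc3 (-0.52 against -0.56). In Ovgp1-BPR tumours they were Rfc1 (0.83 against 0.82), Rfc2 (0.78 against 0.82) and Orc2 (0.71 against 0.81). The adjusted p of these lost calls lay between 0.0524 (Rfc5 in Ad-BPR) and 0.312 (Orc2 in Pax8-BPR).

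Markers of other cell types also differed between tumours and normal organs. Smooth muscle markers (4 genes) summed to 53.0 to 998 CPM in the GEMM tumours, against 1440 to 1850 CPM in ovaries and 7340 to 9660 CPM in oviducts. Epithelial markers (5 genes) summed to 1810 to 2330 CPM in OSE-BPR GEMM tumours, against 69.0 to 114 CPM in ovaries. In the GEMM tumours of oviduct origin they summed to 702 to 8130 CPM, against 1520 to 1820 CPM in oviducts. The part of this shift in the replication gene changes was not tested.

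Because these genes moved together, the sequence before their start sites was read. RefSeq (GRCm38.p6) gave a window of 250 bases before and 50 after the start for 35 of the 43 genes; Pole, Rfc2, Mcm4, Gmnn, Prim2, Gins2, Gins4 and Gins1 had none in the table. Words of the E2F site (TTTCCCGC, TTTCGCGC, TTTGCCGC and TTTGGCGC, on either strand, with overlapping words counted once per window) lay in the windows of 13 of the 35 genes (37.1%), against 2.6% of all 27025 genes with a window and 4.05% of the 13916 of these that passed the count filter. CCAAT, on either strand, lay in 62.9% of the 35, against 41.1% and 42.1%. GGGCGG, the Sp1 word, lay in 71.4%, against 38.2% and 60.8%, and the CHR words TTTGAA and TTCGAA in 17.1%, against 21.7% and 17.1%. The 13 genes with an E2F word were Cdc6, Cdt1, Gins3, Lig1, Mcm3, Mcm5, Mcm6, Mcm7, Orc1, Orc3, Pola1, Pold1 and Rfc3. Their mean change over the 4 GEMM comparisons had a median of 2.63, against 1.82 for the 22 genes without such a word, and it ran from -0.33 for Orc3 to 3.59 for Mcm6.

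The windows below belong to the genes with some of the largest rises (Tk1, Mcm6, Cdt1, Mcm10) and to the ORC genes that fell or were not called (Orc3, Orc5). They are written 5′ to 3′ on the strand of the gene, and capitals mark E2F words and CCAAT on either strand.
Tk1 (chr11:117825965-117826264, minus strand): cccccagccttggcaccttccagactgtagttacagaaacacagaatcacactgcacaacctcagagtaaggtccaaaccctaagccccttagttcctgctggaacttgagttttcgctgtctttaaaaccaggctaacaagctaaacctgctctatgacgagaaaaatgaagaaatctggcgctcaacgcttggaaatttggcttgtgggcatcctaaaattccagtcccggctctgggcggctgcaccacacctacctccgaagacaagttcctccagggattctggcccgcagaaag
Mcm6 (chr1:128359656-128359955, minus strand): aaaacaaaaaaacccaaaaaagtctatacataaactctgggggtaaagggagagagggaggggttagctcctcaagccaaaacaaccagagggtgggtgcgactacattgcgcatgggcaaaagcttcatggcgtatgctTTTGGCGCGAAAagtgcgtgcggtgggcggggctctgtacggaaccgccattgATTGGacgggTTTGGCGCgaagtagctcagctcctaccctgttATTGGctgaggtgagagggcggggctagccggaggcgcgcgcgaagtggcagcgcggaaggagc
Cdt1 (chr8:122567765-122568064, plus strand): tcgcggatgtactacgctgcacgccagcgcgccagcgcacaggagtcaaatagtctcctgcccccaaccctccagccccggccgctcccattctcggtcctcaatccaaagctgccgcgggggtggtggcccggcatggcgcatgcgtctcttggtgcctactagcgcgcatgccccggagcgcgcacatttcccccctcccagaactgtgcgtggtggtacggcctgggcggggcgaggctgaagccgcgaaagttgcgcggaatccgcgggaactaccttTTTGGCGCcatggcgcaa
Mcm10 (chr2:5012742-5013041, minus strand): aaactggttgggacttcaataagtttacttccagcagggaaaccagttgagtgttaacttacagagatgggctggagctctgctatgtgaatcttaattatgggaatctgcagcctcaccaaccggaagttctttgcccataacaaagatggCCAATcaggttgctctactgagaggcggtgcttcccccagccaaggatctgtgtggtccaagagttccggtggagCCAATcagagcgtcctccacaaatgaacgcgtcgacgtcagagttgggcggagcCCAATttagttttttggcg
Orc3 (chr4:34614893-34615192, minus strand): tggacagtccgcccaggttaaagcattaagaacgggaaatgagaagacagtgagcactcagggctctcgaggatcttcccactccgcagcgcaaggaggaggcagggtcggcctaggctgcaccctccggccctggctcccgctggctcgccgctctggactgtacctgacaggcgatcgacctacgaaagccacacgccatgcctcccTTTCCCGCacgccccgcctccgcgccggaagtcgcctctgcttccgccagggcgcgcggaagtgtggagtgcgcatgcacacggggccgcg
Orc5 (chr5:22550289-22550588, minus strand): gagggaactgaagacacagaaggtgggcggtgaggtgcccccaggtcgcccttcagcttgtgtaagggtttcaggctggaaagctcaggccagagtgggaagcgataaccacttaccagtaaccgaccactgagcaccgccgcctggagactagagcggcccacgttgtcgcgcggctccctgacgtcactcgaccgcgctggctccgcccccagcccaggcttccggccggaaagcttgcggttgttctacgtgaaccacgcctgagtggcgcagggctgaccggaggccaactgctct
Mcm6 held 3 E2F words, the closest pair overlapping on opposite strands, and 2 CCAAT words. Cdt1 held 1 E2F word after the start, and Mcm10 held 3 CCAAT words and no E2F word. Tk1 rose most of all 43 genes by the mean of the 4 changes, and none of the E2F or CCAAT words was in its window, whereas Orc3, which fell in 2 models, held 1 E2F word. No match says only that these letters are not in this window.

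The origin recognition complex did not move as a unit. Orc1, the subunit that is turned over through the cell cycle in mammals, and Orc6 rose in every model, while Orc3, Orc4 and Orc5 rose in none. Orc1 stood at 11.9, 25.9 and 32.4 CPM in OSE-BPR GEMM tumours, against 3.88, 5.60 and 6.96 CPM in ovaries. It stood at 14.1 and 17.7 CPM in Ad-BPR, 5.51, 17.4, 17.6 and 14.6 CPM in Pax8-BPR and 7.84, 9.44 and 9.18 CPM in Ovgp1-BPR GEMM tumours, against 1.98, 0.624 and 1.64 CPM in oviducts. Every GEMM tumour was above its own normal tissue, although Pax8-BPR GEMM 1 lay below the highest ovary. The change was 2.09 ± 0.43 (adjusted p = 0.00113) in OSE-BPR, 3.49 ± 0.48 (adjusted p = 1.31e-05) in Ad-BPR, 3.28 ± 0.44 (adjusted p = 5.49e-06) in Pax8-BPR and 2.64 ± 0.44 (adjusted p = 0.0001) in Ovgp1-BPR tumours. The changes over oviduct were 4.63 in Ad-BPR, 4.45 in Pax8-BPR and 3.77 in Ovgp1-BPR tumours without oviducts 1 and 3. Orc6 rose by 1.19 ± 0.24, 1.31 ± 0.26, 1.45 ± 0.23 and 1.74 ± 0.24 in the same order of models.

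Orc5 had changes below 0 that did not pass the threshold in any model. It stood at 20.7, 31.1 and 35.0 CPM in OSE-BPR GEMM tumours, against 33.8, 37.8 and 37.8 CPM in ovaries. In Ad-BPR, Pax8-BPR and Ovgp1-BPR GEMM tumours it stood at 18.0 and 18.3 CPM, 15.6, 18.7, 19.9 and 15.7 CPM and 18.9, 17.4 and 17.1 CPM, against 27.1, 20.2 and 25.9 CPM in oviducts. The oviduct-origin tumours lay below all 3 oviducts, and the OSE-BPR tumours overlapped the ovaries. The changes were -0.33 ± 0.21, -0.43 ± 0.24, -0.48 ± 0.20 and -0.46 ± 0.21 in OSE-BPR, Ad-BPR, Pax8-BPR and Ovgp1-BPR tumours, with adjusted p of 0.275, 0.199, 0.0674 and 0.105. Orc3 fell in Ad-BPR (-0.89 ± 0.20, adjusted p = 0.00245) and in Pax8-BPR tumours (-0.56 ± 0.16, adjusted p = 0.00928); the call in Pax8-BPR was lost without oviduct replicate 1, and over all single libraries left out its change ran from -0.60 to -0.45. Orc3 in OSE-BPR and Ovgp1-BPR tumours (0.12 ± 0.17 and 0.03 ± 0.17) and Orc4 in every model did not pass the threshold. Orc2 rose in Pax8-BPR (0.56 ± 0.19, adjusted p = 0.0292) and Ovgp1-BPR tumours (0.81 ± 0.21, adjusted p = 0.00438). The Pax8-BPR call on Orc2 was lost without Pax8-BPR GEMM 3 or 4 or oviduct 1 or 3 (range 0.45 to 0.68).

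Per gene length, the highest ORC subunit exceeded the lowest by less in OSE-BPR, Ad-BPR and Pax8-BPR GEMM tumours than in either normal tissue. In Ovgp1-BPR GEMM tumours it did so by about as much as in ovary. This ratio follows Orc1 and does not describe the spread among the other subunits. In TPM, Orc1 was the lowest subunit in each of the 10 groups. The highest subunit mean exceeded that of Orc1 by 4.71-fold in OSE-BPR, 5.85-fold in Ad-BPR, 7.17-fold in Pax8-BPR and 13.6-fold in Ovgp1-BPR GEMM tumours, against 13.4-fold in ovaries and 45.1-fold in oviducts. Orc6 was the highest subunit in all 8 tumour groups and Orc4 in both normal tissues. Orc1 itself stood at 17.9 ± 6.16 TPM in OSE-BPR and 7.71 ± 1.57 TPM in Ovgp1-BPR GEMM tumours (mean ± SD, n = 3 each), against 3.78 ± 1.00 TPM in ovaries and 0.873 ± 0.255 TPM in oviducts (n = 3 each).

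**Figure D2:**
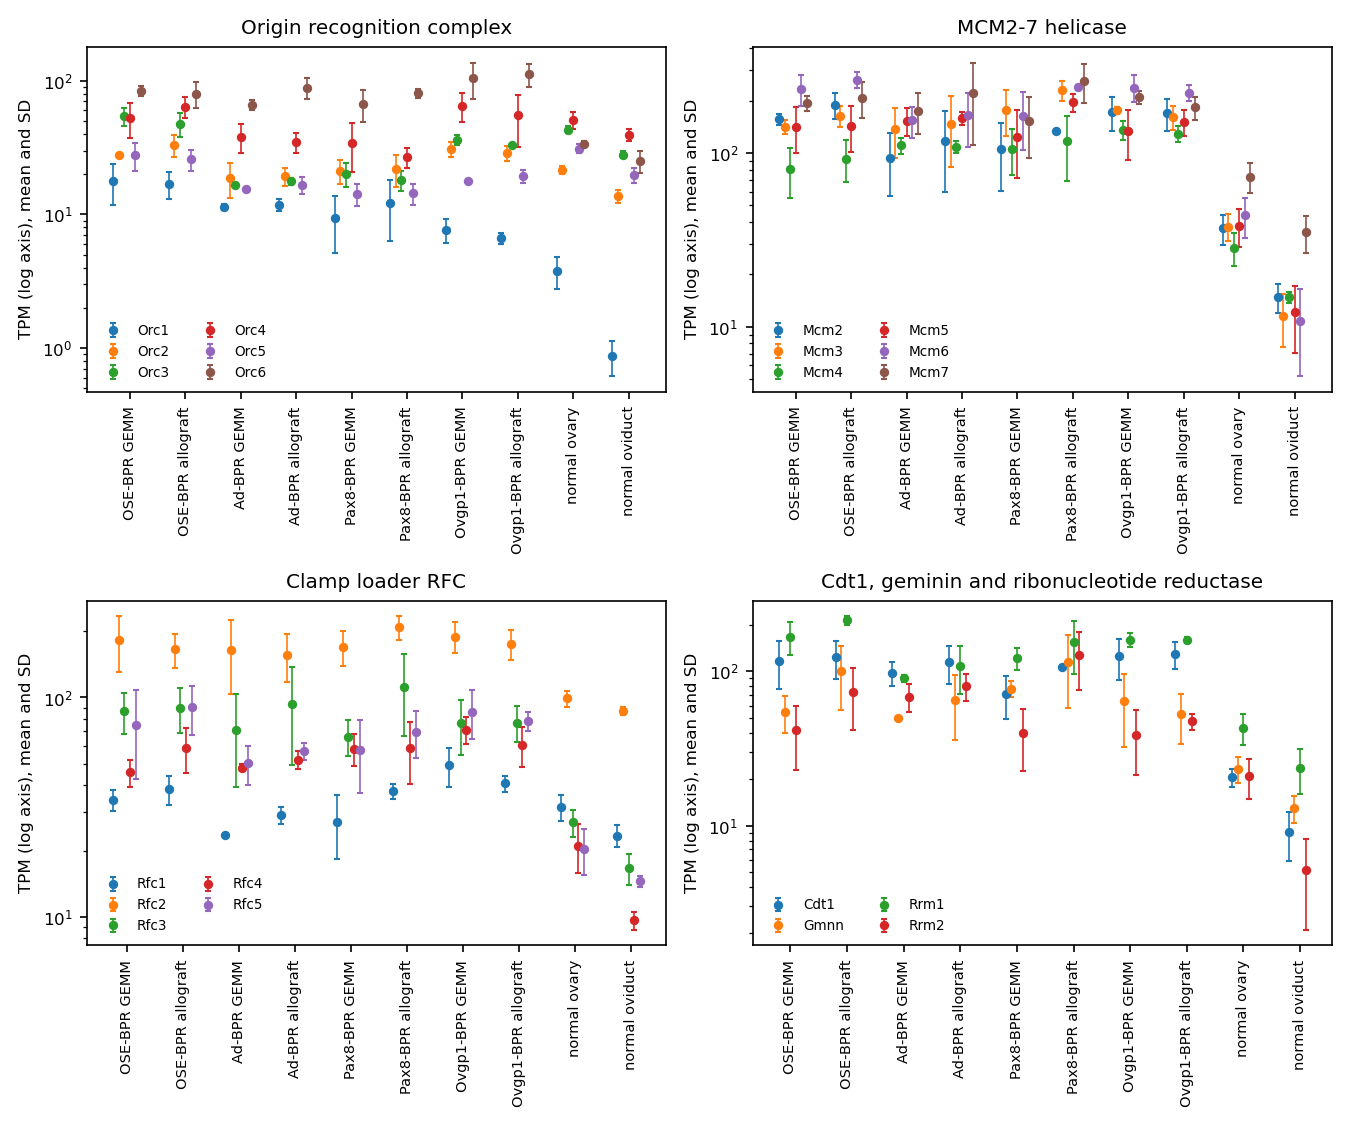
TPM (log axis; mean and SD over the libraries of a group) of ORC subunits, MCM2-7, the clamp loader RFC, and of Cdt1, Gmnn, Rrm1 and Rrm2 in 8 tumour groups and 2 normal tissues. Orc1 is the lowest ORC subunit in every group, at 0.873 TPM in oviducts, and Orc6 is the highest in the 8 tumour groups. Orc3 stands at 46.9, 52.8 and 62.8 TPM in OSE-BPR GEMM tumours and at 17.0 and 16.4 TPM in Ad-BPR GEMM tumours.

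Of the licensing factors, Cdc6 and Cdt1 rose in every model, and Gmnn, the gene of the Cdt1 inhibitor geminin, in the 3 oviduct models. Cdt1, which brings the MCM ring to ORC, stood at 72.1, 147 and 136 CPM in OSE-BPR GEMM tumours, against 21.6, 23.2 and 27.9 CPM in ovaries. In Ad-BPR, Pax8-BPR and Ovgp1-BPR GEMM tumours it stood at 121 and 98.0 CPM, 69.9, 78.5, 85.7 and 116 CPM and 107, 106 and 166 CPM, against 13.4, 6.39 and 12.9 CPM in oviducts. No tumour reached down to either normal tissue. The changes were 2.29 ± 0.33 (adjusted p = 3.84e-05) in OSE-BPR, 3.33 ± 0.36 in Ad-BPR, 3.00 ± 0.33 in Pax8-BPR and 3.54 ± 0.35 (adjusted p = 6.06e-08) in Ovgp1-BPR tumours. Without oviducts 1 and 3 Cdt1 changed by 4.07 in Ad-BPR, 3.78 in Pax8-BPR and 4.27 in Ovgp1-BPR tumours. Gmnn stood at 30.3, 19.2 and 19.7 CPM in OSE-BPR GEMM tumours, against 9.78, 11.2 and 13.3 CPM in ovaries. It stood at 22.7 and 25.0 CPM in Ad-BPR, 38.0, 40.4, 40.2 and 36.8 CPM in Pax8-BPR and 43.8, 18.8 and 18.5 CPM in Ovgp1-BPR GEMM tumours, against 6.54, 5.51 and 7.84 CPM in oviducts. The Pax8-BPR values were the most even, while Ovgp1-BPR GEMM 1 stood well above the other tumours of its group. Gmnn did not pass the threshold in OSE-BPR tumours (1.01 ± 0.43, adjusted p = 0.0908), although the groups did not overlap, and it rose in Ad-BPR (1.85 ± 0.47, adjusted p = 0.00704), Pax8-BPR (2.55 ± 0.44, adjusted p = 0.000106) and Ovgp1-BPR tumours (2.03 ± 0.44, adjusted p = 0.00136). The Ad-BPR call was lost without Ad-BPR GEMM 2 (range 1.73 to 1.99).

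The ratio of Cdt1 to Gmnn in TPM had a median of 2.73 in OSE-BPR, 1.95 in Ad-BPR, 0.83 in Pax8-BPR and 2.30 in Ovgp1-BPR GEMM tumours, against 0.877 in ovaries and 0.666 in oviducts. The Pax8-BPR tumours, from 0.719 to 1.32, thus overlapped both normal tissues, and both Ad-BPR tumours (1.71 and 2.18) lay above them. Cdc6, the ATPase that joins ORC to load MCM, rose by 3.70 ± 0.58 (adjusted p = 6.21e-05) in Ad-BPR, 3.07 ± 0.52 (adjusted p = 9.79e-05) in Pax8-BPR and 2.40 ± 0.53 (adjusted p = 0.00138) in Ovgp1-BPR tumours, or by 4.74 in Ad-BPR, 4.14 in Pax8-BPR and 3.42 in Ovgp1-BPR tumours without oviducts 1 and 3. In OSE-BPR tumours it stood at 22.3, 48.9 and 35.6 CPM, against 9.98, 10.6 and 16.6 CPM in ovaries, a change of 1.52 ± 0.50 (adjusted p = 0.0301). That call was lost without OSE-BPR GEMM 2 or 3 or ovary 1 or 2 (range 1.25 to 1.81).

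All 6 subunits of the MCM2-7 helicase rose in each of the 4 models. Their median change was 1.68 in OSE-BPR, 3.01 in Ad-BPR, 3.05 in Pax8-BPR and 3.20 in Ovgp1-BPR tumours. Mcm6 stood at 260.0, 399 and 323 CPM in OSE-BPR GEMM tumours, against 60.8, 61.5 and 86.4 CPM in ovaries. In Ad-BPR, Pax8-BPR and Ovgp1-BPR GEMM tumours it stood at 278 and 221 CPM, 181, 239.7, 346 and 372 CPM and 355, 288 and 393 CPM, against 25.4, 8.11 and 19.4 CPM in oviducts. Every primary tumour lay far above the highest ovary, and oviduct replicate 2 was the lowest of all 32 libraries. Its change was 2.23 ± 0.34 (adjusted p = 5.72e-05) in OSE-BPR, 3.82 ± 0.38 (adjusted p = 1.27e-07) in Ad-BPR, 4.01 ± 0.36 (adjusted p = 1.07e-08) in Pax8-BPR and 4.29 ± 0.37 (adjusted p = 6.67e-09) in Ovgp1-BPR tumours. With the lone oviduct 2 it was 4.92 in Ad-BPR, 5.14 in Pax8-BPR and 5.37 in Ovgp1-BPR tumours. Mcm7 had the smallest mean change of the 6 and stood at 245, 203 and 247 CPM in OSE-BPR GEMM tumours, against 82.9, 81.2 and 108 CPM in ovaries. It stood at 269 and 206 CPM in Ad-BPR, 135, 268, 256 and 194 CPM in Pax8-BPR and 241, 225 and 257 CPM in Ovgp1-BPR GEMM tumours, against 43.9, 32.6 and 53.9 CPM in oviducts. Here too no tumour overlapped a normal library, with changes of 1.35 ± 0.34, 2.45 ± 0.37, 2.29 ± 0.34 and 2.47 ± 0.35 in OSE-BPR, Ad-BPR, Pax8-BPR and Ovgp1-BPR tumours.

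The MCM subunits form a ring with 1 copy of each. Per length, the means of their transcripts differed by up to 3.23-fold within a group. In TPM the highest subunit exceeded the lowest by 2.88-fold in OSE-BPR, 1.87-fold in Ad-BPR, 1.69-fold in Pax8-BPR and 1.78-fold in Ovgp1-BPR GEMM tumours, against 2.56-fold in ovaries and 3.23-fold in oviducts. Mcm4 was the lowest subunit in OSE-BPR GEMM tumours (81.2 ± 26.3 TPM, mean ± SD, n = 3) and in ovaries (28.5 ± 6.26 TPM, n = 3). In oviducts Mcm6 had the lowest mean, at 10.8 ± 5.63 TPM (n = 3), through oviduct 2 (4.6 TPM, against 7.57 TPM for Mcm3). In oviducts 1 and 3 Mcm3 lay below Mcm6, at 15.4 and 11.55 TPM against 15.55 and 12.32 TPM.

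The genes that activate the loaded helicase rose in most models. The exceptions were Gins1, Gins3 and Gins4 in OSE-BPR tumours and Gins4 in Ovgp1-BPR tumours, which did not pass the threshold. Mcm10 stood at 26.2, 53.0 and 48.3 CPM in OSE-BPR GEMM tumours, against 12.6, 14.5 and 21.8 CPM in ovaries. It stood at 38.0 and 35.2 CPM in Ad-BPR, 25.4, 89.2, 43.4 and 48.7 CPM in Pax8-BPR and 27.8, 30.8 and 26.3 CPM in Ovgp1-BPR GEMM tumours, against 4.86, 0.728 and 4.04 CPM in oviducts. Pax8-BPR GEMM 2 was far above the others, and oviduct 2 far below the other oviducts. The change was 1.38 ± 0.45 (adjusted p = 0.0276) in OSE-BPR, 3.51 ± 0.51 (adjusted p = 2.93e-05) in Ad-BPR, 4.01 ± 0.49 (adjusted p = 1.46e-06) in Pax8-BPR and 3.14 ± 0.48 (adjusted p = 3.39e-05) in Ovgp1-BPR tumours. The changes over oviduct were 5.62 in Ad-BPR, 6.14 in Pax8-BPR and 5.23 in Ovgp1-BPR tumours when oviducts 1 and 3 were left out. The OSE-BPR call was lost without OSE-BPR GEMM 2 or 3 or ovary 1 or 2 (range 1.22 to 1.67). Cdc45, which completes the active helicase with GINS, rose by 0.80 ± 0.26, 2.86 ± 0.29, 3.19 ± 0.27 and 2.82 ± 0.27 in OSE-BPR, Ad-BPR, Pax8-BPR and Ovgp1-BPR tumours, and its OSE-BPR call was lost without OSE-BPR GEMM 1 or ovary 1 or 2 (range 0.63 to 0.99).

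Gins4 changed least of the activation genes. It stood at 41.8, 31.2 and 29.5 CPM in OSE-BPR GEMM tumours, against 24.5, 27.8 and 31.2 CPM in ovaries. In Ad-BPR, Pax8-BPR and Ovgp1-BPR GEMM tumours it stood at 40.0 and 46.2 CPM, 45.3, 53.3, 43.01 and 41.3 CPM and 34.3, 22.8 and 33.5 CPM, against 23.2, 20.8 and 19.9 CPM in oviducts. The OSE-BPR tumours overlapped the ovaries, and 1 Ovgp1-BPR tumour fell within the oviduct range. Gins4 rose in Ad-BPR (1.02 ± 0.30, adjusted p = 0.0169) and Pax8-BPR tumours (1.10 ± 0.26, adjusted p = 0.00256) but not past the threshold in OSE-BPR (0.29 ± 0.27, adjusted p = 0.472) or Ovgp1-BPR tumours (0.50 ± 0.27, adjusted p = 0.162). Its Ad-BPR call was lost without Ad-BPR GEMM 2 or oviduct 3 (range 0.86 to 1.18). In OSE-BPR tumours Gins1 and Gins3 had changes of 0.82 ± 0.37 (adjusted p = 0.109) and 0.75 ± 0.28 (adjusted p = 0.0556). Gins2 rose in every model, from 1.53 ± 0.24 in Pax8-BPR to 2.23 ± 0.25 in Ovgp1-BPR tumours, with the overlap with Gse1 given above.

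All 4 genes of polymerase alpha-primase rose in every model. Pola1, the catalytic polymerase subunit, stood at 35.1, 72.2 and 73.3 CPM in OSE-BPR GEMM tumours, against 15.7, 16.8 and 21.7 CPM in ovaries. It stood at 64.7 and 119.5 CPM in Ad-BPR, 26.8, 22.6, 59.7 and 64.8 CPM in Pax8-BPR and 69.0, 75.0 and 99.6 CPM in Ovgp1-BPR GEMM tumours, against 9.61, 8.58 and 8.95 CPM in oviducts. The Pax8-BPR tumours split into a low and a high pair, all above the oviducts. Changes were 1.74 ± 0.34 (adjusted p = 0.000816) in OSE-BPR, 3.35 ± 0.38 (adjusted p = 1.11e-06) in Ad-BPR, 2.26 ± 0.34 (adjusted p = 2e-05) in Pax8-BPR and 3.17 ± 0.36 (adjusted p = 5.62e-07) in Ovgp1-BPR tumours. Prim2, the large primase subunit, stood at 36.7, 48.3 and 38.4 CPM in OSE-BPR GEMM tumours, against 15.4, 15.0 and 18.0 CPM in ovaries. It stood at 29.9 and 21.3 CPM in Ad-BPR, 29.6, 20.3, 34.6 and 36.9 CPM in Pax8-BPR and 36.6, 43.5 and 55.3 CPM in Ovgp1-BPR GEMM tumours, against 14.6, 12.6 and 10.6 CPM in oviducts. Prim2 rose by 1.35 ± 0.27, 1.02 ± 0.29, 1.27 ± 0.26 and 1.84 ± 0.27 in OSE-BPR, Ad-BPR, Pax8-BPR and Ovgp1-BPR tumours, less than Prim1 (the catalytic primase subunit) at 1.80 ± 0.42, 2.06 ± 0.45, 2.23 ± 0.41 and 3.02 ± 0.44. The Ad-BPR call on Prim2 was lost without Ad-BPR GEMM 1 or oviduct 3 (range 0.82 to 1.20).

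Both replicative polymerases rose in every model, and the change of Pole (leading strand) was larger than that of Pold1 (lagging strand) in each, a difference between genes that was not tested. Pole stood at 85.9, 230.5 and 246 CPM in OSE-BPR GEMM tumours, against 28.2, 24.1 and 34.1 CPM in ovaries. It stood at 75.2 and 92.2 CPM in Ad-BPR, 42.2, 62.4, 122 and 109 CPM in Pax8-BPR and 123, 115 and 166 CPM in Ovgp1-BPR GEMM tumours, against 13.4, 5.15 and 8.71 CPM in oviducts. OSE-BPR GEMM 2 and 3 held the highest values of the 12 primary tumours, and Pax8-BPR GEMM 1 the lowest. The changes were 2.70 ± 0.40 (adjusted p = 5.15e-05) in OSE-BPR, 3.21 ± 0.43 (adjusted p = 1.1e-05) in Ad-BPR, 3.21 ± 0.40 (adjusted p = 2.04e-06) in Pax8-BPR and 3.89 ± 0.43 (adjusted p = 2.89e-07) in Ovgp1-BPR tumours. Without oviducts 1 and 3 Pole changed by 4.00 in Ad-BPR, 4.03 in Pax8-BPR and 4.67 in Ovgp1-BPR tumours. Pold1 stood at 96.2, 135 and 159 CPM in OSE-BPR GEMM tumours, against 40.2, 39.2 and 50.7 CPM in ovaries. It stood at 103 and 94.3 CPM in Ad-BPR, 132, 65.5, 135 and 136 CPM in Pax8-BPR and 185, 187 and 251 CPM in Ovgp1-BPR GEMM tumours, against 37.4, 31.7 and 36.1 CPM in oviducts. Pax8-BPR GEMM 2 was the lowest of the tumours and the Ovgp1-BPR tumours were the highest. Pold1 rose by 1.58 ± 0.26 (adjusted p = 0.000169) in OSE-BPR, 1.49 ± 0.29 (adjusted p = 0.000606) in Ad-BPR, 1.74 ± 0.26 (adjusted p = 1.65e-05) in Pax8-BPR and 2.56 ± 0.27 (adjusted p = 1.92e-07) in Ovgp1-BPR tumours.

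The sliding clamp and most of its loader rose, and the largest loader subunit did so in a single model. Pcna, the clamp, rose by 1.20 ± 0.22, 1.70 ± 0.24, 1.90 ± 0.21 and 2.31 ± 0.23 in OSE-BPR, Ad-BPR, Pax8-BPR and Ovgp1-BPR tumours; the annotation names the pseudogenes Pcna-ps1 and Pcna-ps2, so reads could be split among near-identical copies. Rfc1 stood at 70.6, 69.1 and 64.5 CPM in OSE-BPR GEMM tumours, against 75.4, 76.1 and 84.5 CPM in ovaries. It stood at 62.4 and 66.3 CPM in Ad-BPR, 50.5, 80.2, 77.5 and 52.0 CPM in Pax8-BPR and 87.4, 89.5 and 118 CPM in Ovgp1-BPR GEMM tumours, against 57.8, 54.0 and 55.1 CPM in oviducts. All 3 OSE-BPR tumours lay below the ovaries, the Pax8-BPR tumours straddled the oviducts, and the Ovgp1-BPR tumours lay well above them. Rfc1 rose in Ovgp1-BPR tumours (0.82 ± 0.19, adjusted p = 0.00201), and its changes of -0.21 ± 0.19 (adjusted p = 0.454) in OSE-BPR, 0.21 ± 0.21 (adjusted p = 0.485) in Ad-BPR and 0.23 ± 0.18 (adjusted p = 0.337) in Pax8-BPR tumours did not pass the threshold. On the log2(TPM + 1) scale the OSE-BPR change of Rfc1 had the opposite sign, at 0.107.

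Rfc4, a small loader subunit, stood at 28.5, 23.9 and 20.9 CPM in OSE-BPR GEMM tumours, against 12.5, 11.8 and 16.8 CPM in ovaries. It stood at 28.7 and 30.4 CPM in Ad-BPR, 36.2, 35.5, 37.3 and 43.5 CPM in Pax8-BPR and 33.0, 38.3 and 43.5 CPM in Ovgp1-BPR GEMM tumours, against 7.14, 5.82 and 7.02 CPM in oviducts. No tumour overlapped its normal tissue, and the spread within models was small. Rfc4 rose by 0.83 ± 0.22 (adjusted p = 0.00876) in OSE-BPR, 2.15 ± 0.25 (adjusted p = 1.15e-06) in Ad-BPR, 2.52 ± 0.23 (adjusted p = 1.34e-08) in Pax8-BPR and 2.52 ± 0.23 (adjusted p = 2.38e-08) in Ovgp1-BPR tumours. Rfc2, Rfc3 and Rfc5 rose in each model, with changes from 0.67 ± 0.21 for Rfc2 in OSE-BPR to 2.36 ± 0.33 for Rfc5 in Ovgp1-BPR tumours. The OSE-BPR call on Rfc2 was lost without OSE-BPR GEMM 2 or 3 or ovary 1 or 2 (range 0.50 to 0.89), and the Ad-BPR call without Ad-BPR GEMM 1 (range 0.58 to 1.03). In TPM, Rfc1 was the lowest RFC subunit in all 8 tumour groups, at 34.1 ± 3.67 TPM in OSE-BPR GEMM tumours (mean ± SD, n = 3), whereas Rfc5 was lowest in ovaries (20.4 ± 4.81 TPM, n = 3) and Rfc4 in oviducts (9.68 ± 0.903 TPM, n = 3).

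Replication protein A, which coats single-stranded DNA at the fork and in repair, had 1 subunit, Rpa2, that rose in every model. Rpa1 stood at 134, 148 and 122 CPM in OSE-BPR GEMM tumours, against 89.8, 85.7 and 105 CPM in ovaries. It stood at 109 and 123 CPM in Ad-BPR, 69.3, 152, 113 and 154 CPM in Pax8-BPR and 132, 74.8 and 108 CPM in Ovgp1-BPR GEMM tumours, against 69.0, 76.1 and 64.5 CPM in oviducts. Pax8-BPR GEMM 1 and Ovgp1-BPR GEMM 2 fell within the oviduct range. Rpa1 rose in Pax8-BPR tumours (0.80 ± 0.24, adjusted p = 0.0109) and had changes of 0.53 ± 0.25 (adjusted p = 0.125) in OSE-BPR, 0.73 ± 0.27 (adjusted p = 0.0514) in Ad-BPR and 0.59 ± 0.25 (adjusted p = 0.0701) in Ovgp1-BPR tumours. Rpa2 stood at 47.3, 67.4 and 63.6 CPM in OSE-BPR GEMM tumours, against 27.3, 26.2 and 29.9 CPM in ovaries. It stood at 45.2 and 56.1 CPM in Ad-BPR, 37.4, 40.4, 44.9 and 43.7 CPM in Pax8-BPR and 60.0, 61.5 and 64.1 CPM in Ovgp1-BPR GEMM tumours, against 15.7, 14.1 and 17.2 CPM in oviducts. The groups did not overlap, and Rpa2 rose by 1.10 ± 0.24, 1.69 ± 0.27, 1.41 ± 0.23 and 1.98 ± 0.25 in OSE-BPR, Ad-BPR, Pax8-BPR and Ovgp1-BPR tumours. Rpa3, the smallest subunit, rose in OSE-BPR (0.93 ± 0.28, adjusted p = 0.0175), Pax8-BPR (1.37 ± 0.27) and Ovgp1-BPR tumours (1.12 ± 0.28) and had a change of 0.69 ± 0.30 (adjusted p = 0.1) in Ad-BPR tumours. Its OSE-BPR call was lost without ovary 2 (range 0.92 to 0.96).

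The enzymes that finish Okazaki fragments all rose in each model. Lig1, the ligase, stood at 104, 141 and 144 CPM in OSE-BPR GEMM tumours, against 39.7, 37.7 and 55.2 CPM in ovaries. It stood at 89.9 and 102 CPM in Ad-BPR, 91.7, 67.5, 122 and 115 CPM in Pax8-BPR and 183, 173 and 207 CPM in Ovgp1-BPR GEMM tumours, against 19.8, 15.6 and 21.7 CPM in oviducts. The Ovgp1-BPR tumours were the highest, and none of the tumours overlapped normal tissue. Its changes were 1.55 ± 0.28 (adjusted p = 0.000323) in OSE-BPR, 2.34 ± 0.30 (adjusted p = 6.23e-06) in Ad-BPR, 2.38 ± 0.28 (adjusted p = 7.29e-07) in Pax8-BPR and 3.30 ± 0.30 (adjusted p = 1.42e-08) in Ovgp1-BPR tumours. Fen1, the flap endonuclease, stood at 53.8, 47.8 and 58.8 CPM in OSE-BPR GEMM tumours, against 26.8, 27.3 and 37.2 CPM in ovaries. It stood at 61.4 and 69.7 CPM in Ad-BPR, 38.4, 96.4, 51.0 and 70.6 CPM in Pax8-BPR and 51.6, 52.0 and 56.0 CPM in Ovgp1-BPR GEMM tumours, against 17.8, 13.6 and 17.2 CPM in oviducts. Fen1 rose by 0.81 ± 0.27 (adjusted p = 0.0338) in OSE-BPR, 2.02 ± 0.30 (adjusted p = 4.14e-05) in Ad-BPR, 1.98 ± 0.27 (adjusted p = 7.23e-06) in Pax8-BPR and 1.71 ± 0.28 (adjusted p = 7.38e-05) in Ovgp1-BPR tumours. The OSE-BPR call was lost without OSE-BPR GEMM 1 or 3 or ovary 1 or 2 (range 0.73 to 1.01). Dna2, the nuclease and helicase for long flaps, rose by 1.96 ± 0.30, 2.01 ± 0.33, 2.26 ± 0.30 and 2.95 ± 0.32 in OSE-BPR, Ad-BPR, Pax8-BPR and Ovgp1-BPR tumours.

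All 4 nucleotide supply genes rose in the 3 oviduct models, and Tk1, the thymidine salvage kinase, had the largest mean of the 4 changes in the set. It stood at 59.0, 70.0 and 155 CPM in OSE-BPR GEMM tumours, against 9.91, 13.3 and 17.4 CPM in ovaries. The level was 81.1 and 62.1 CPM in Ad-BPR, 56.3, 47.9, 88.3 and 110.1 CPM in Pax8-BPR and 90.2, 45.4 and 61.3 CPM in Ovgp1-BPR GEMM tumours, against 5.76, 2.55 and 4.28 CPM in oviducts. The lowest tumour lay well above the highest normal library. Tk1 rose by 2.80 ± 0.46 (adjusted p = 0.000141) in OSE-BPR, 4.09 ± 0.51 (adjusted p = 3.38e-06) in Ad-BPR, 4.17 ± 0.48 (adjusted p = 6.89e-07) in Pax8-BPR and 3.97 ± 0.49 (adjusted p = 1.62e-06) in Ovgp1-BPR tumours, or by 4.78 in Ad-BPR, 4.90 in Pax8-BPR and 4.65 in Ovgp1-BPR tumours without oviducts 1 and 3. Tyms, which makes thymidylate anew, stood at 36.5, 50.8 and 58.3 CPM in OSE-BPR GEMM tumours, against 20.1, 22.5 and 27.4 CPM in ovaries. It stood at 37.9 and 42.9 CPM in Ad-BPR, 39.9, 37.4, 57.7 and 42.1 CPM in Pax8-BPR and 50.7, 66.0 and 96.9 CPM in Ovgp1-BPR GEMM tumours, against 13.4, 10.4 and 11.9 CPM in oviducts. Tyms rose by 1.06 ± 0.27, 1.76 ± 0.30, 1.89 ± 0.27 and 2.58 ± 0.29 in OSE-BPR, Ad-BPR, Pax8-BPR and Ovgp1-BPR tumours; the annotation names the pseudogene Tyms-ps.

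Ribonucleotide reductase pairs a large subunit, Rrm1, with a small subunit, Rrm2, whose protein is limited to S phase and G2 in dividing cells. Rrm1 rose by 1.90 ± 0.22, 2.07 ± 0.24, 2.48 ± 0.22 and 2.81 ± 0.23 in OSE-BPR, Ad-BPR, Pax8-BPR and Ovgp1-BPR tumours. Rrm2 rose by 3.71 ± 0.50 (adjusted p = 9.64e-06) in Ad-BPR, 2.93 ± 0.45 (adjusted p = 2.81e-05) in Pax8-BPR and 2.61 ± 0.46 (adjusted p = 0.000157) in Ovgp1-BPR tumours, or by 5.07 in Ad-BPR, 4.32 in Pax8-BPR and 3.96 in Ovgp1-BPR tumours without oviducts 1 and 3. In OSE-BPR GEMM tumours it stood at 24.1, 55.6 and 37.5 CPM, against 18.3, 21.8 and 29.7 CPM in ovaries, and its change of 0.75 ± 0.43 (adjusted p = 0.218) did not pass the threshold. The ratio of Rrm1 to Rrm2 in TPM had a median of 4.00 in OSE-BPR, 1.35 in Ad-BPR, 3.93 in Pax8-BPR and 4.42 in Ovgp1-BPR GEMM tumours, against 2.10 in ovaries and 5.47 in oviducts.

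**Figure D3:**
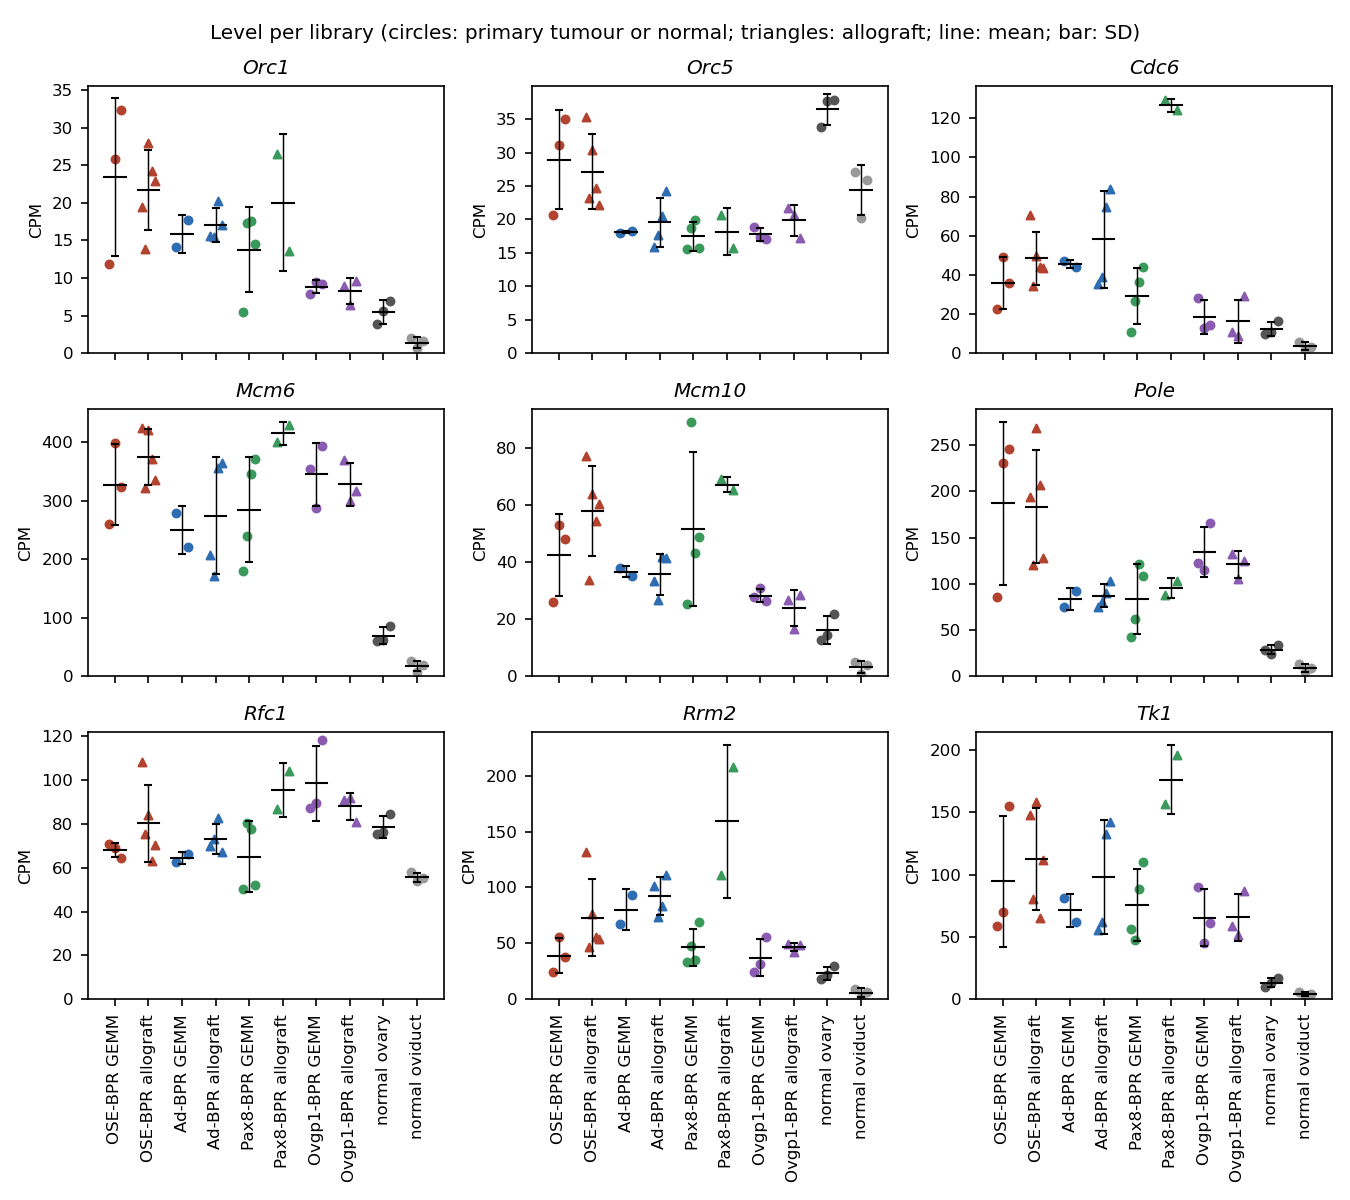
CPM of 9 replication genes in each of the 32 libraries, by group, with group means (lines) and SD (bars); circles are primary tumours or normal tissue and triangles are allografts. Mcm6 and Tk1 separate every tumour from every normal library, no tumour exceeds the highest ovary in Orc5, and Cdc6 reaches 129 CPM in Pax8-BPR allografts.

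The normal organs themselves differed. In oviduct against ovary of the same animals, 33 of the 43 genes were lower and 0 higher (6 normal libraries; 24.5% of all genes were lower and 28.5% higher), with a median change of -0.81 over the set and 0.02 over all genes. The largest differences were in Mcm10 (-2.26 ± 0.58, adjusted p = 0.0144), Mcm6 (-1.89 ± 0.38, adjusted p = 0.00547) and Orc1 (-1.87 ± 0.43, adjusted p = 0.00983). Rfc2 had the smallest (-0.04 ± 0.07, adjusted p = 0.707), and Gins1, Gins2, Gins4, Prim1, Prim2, Pold1, Rpa3, Orc4 and Orc6 were not called either. The 18 mitosis genes, a list of spindle and checkpoint genes with Mki67 and Top2a, were also lower in oviduct, all 18 of them, and summed to 54.5 to 207 CPM in oviducts and 504 to 764 CPM in ovaries. Ovary replicate 3 was the highest ovary for 41 of the 43 genes, and oviduct replicate 2 the lowest oviduct for 33. Without ovary replicate 3 the calls on Cdt1, Gmnn, Mcm10, Gins3, Rfc5, Rpa1 and Dna2 were lost, and the count of called genes ran from 26 to 34 over all single libraries left out. Without oviducts 1 and 3, 1 oviduct was left against 3 ovaries. The spread then came from ovaries alone, so calls are not counted. The median difference was -1.01, with -2.11 for Gins1, -0.91 for Prim1, -0.23 for Rpa1 and -0.49 for Rfc5. The differences were then larger for the 11 genes that moved by more than 1.5 times, at -4.41 for Mcm10, -3.25 for Rrm2 (against -1.85 with all oviducts), -3.06 for Orc1, -3.04 for Mcm6, -2.83 for Cdc6 and -2.42 for Pole. Gins1, Cdt1, Mcm5, Tk1 and Mcm3 were the other 5, at -2.11, -1.86, -2.37, -2.35 and -2.20, against -1.01, -1.07, -1.49, -1.61 and -1.57 with all 3. The fit on all 32 libraries, which the comparisons of tumours with normal tissue use, called 22 genes lower and 0 higher, where 4.74% of all genes were lower. With the animal as a block, which the shared animals allow, 32 genes were lower. Gins1 was gained (-1.08, adjusted p = 0.0496), and Rpa1 (-0.33, adjusted p = 0.068) and Rfc5 (-0.43, adjusted p = 0.0533) were lost. The share of all genes called lower with the block is not given here.

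Whether the OSE-BPR rise over ovary differed from the mean rise of the 3 oviduct models over oviduct was tested as an interaction. For 11 of the 43 genes the OSE-BPR change was smaller, and for 0 it was larger (5.78% of all genes were lower and 8.03% higher by this test). These were 4 of the 6 MCM subunits, Mcm3 (-1.75 ± 0.37, adjusted p = 0.00242), Mcm4 (-1.53 ± 0.33, adjusted p = 0.00293), Mcm5 (-1.67 ± 0.42, adjusted p = 0.01) and Mcm6 (-1.81 ± 0.43, adjusted p = 0.00608), the helicase activators Cdc45 (-2.16 ± 0.34, adjusted p = 0.000159), Mcm10 (-2.17 ± 0.60, adjusted p = 0.016) and Gins1 (-1.57 ± 0.48, adjusted p = 0.0307), the clamp loader subunit Rfc4 (-1.56 ± 0.29, adjusted p = 0.000946), the Okazaki fragment enzymes Fen1 (-1.09 ± 0.36, adjusted p = 0.0427) and Lig1 (-1.12 ± 0.36, adjusted p = 0.0375), and Rrm2 (-2.34 ± 0.58, adjusted p = 0.00814). The median difference was -0.77 over the set and 0.01 over all genes. The largest difference in the other direction was that of Orc3 (0.59 ± 0.22, adjusted p = 0.0752), which did not pass the threshold but was called by DESeq2 (0.62, adjusted p = 0.025) and by voom with quality weights (0.62, adjusted p = 0.0021).

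The difference holds 2 tissues as well as 2 kinds of tumour. Rrm2 averaged 39.0 ± 15.8 CPM in OSE-BPR GEMM tumours and 23.3 ± 5.83 CPM in ovaries (SD, n = 3 each), and 80.0 ± 18.2, 46.5 ± 16.4 and 37.3 ± 16.3 CPM in Ad-BPR, Pax8-BPR and Ovgp1-BPR GEMM tumours (n = 2, 4 and 3) and 6.12 ± 3.64 CPM in oviducts (n = 3). Mcm6 averaged 328 ± 69.7 CPM in OSE-BPR GEMM tumours and 69.6 ± 14.6 CPM in ovaries, and 249.8 ± 40.5, 285 ± 89.8 and 345 ± 53.4 CPM in the oviduct models in the same order and 17.6 ± 8.78 CPM in oviducts. The OSE-BPR mean of Mcm6 lay within the range of the oviduct model means, and its ovary mean above its oviduct mean. The part of dividing ovarian cells in the ovary level, beside 106 to 317 CPM of granulosa, theca and luteal markers in OSE-BPR GEMM tumours and 10700 to 12400 CPM in ovaries, was not tested. Without oviducts 1 and 3, 9 genes were called lower (1.85% of all genes), with Fen1 (-1.32, adjusted p = 0.118) and Lig1 (-1.38, adjusted p = 0.094) lost. The sizes depended on these oviducts. Without them the difference was -4.27 for Mcm10, -3.70 for Rrm2, -2.90 for Mcm6, -2.63 for Gins1 and -2.51 for Mcm5. It was -2.58 for Cdc45, -2.34 for Mcm3, -1.66 for Mcm4 and -1.73 for Rfc4. Cdc6, Orc1, Tk1, Cdt1 and Pole, not called with all oviducts, also moved by more than 1.5 times, to -2.57, -2.19, -1.97, -1.75 and -1.53. The median difference over the set was then -0.98, and 2 genes changed sign. Without ovary replicate 3 the count was 7, with Mcm10, Gins1, Fen1 and Lig1 lost; the call on Fen1 was lost in 12 of the 18 fits that left out 1 library, that on Lig1 in 7 and that on Gins1 in 5 (ranges -1.18 to -0.94, -1.23 to -0.95 and -1.93 to -1.25).

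**Figure D4:**
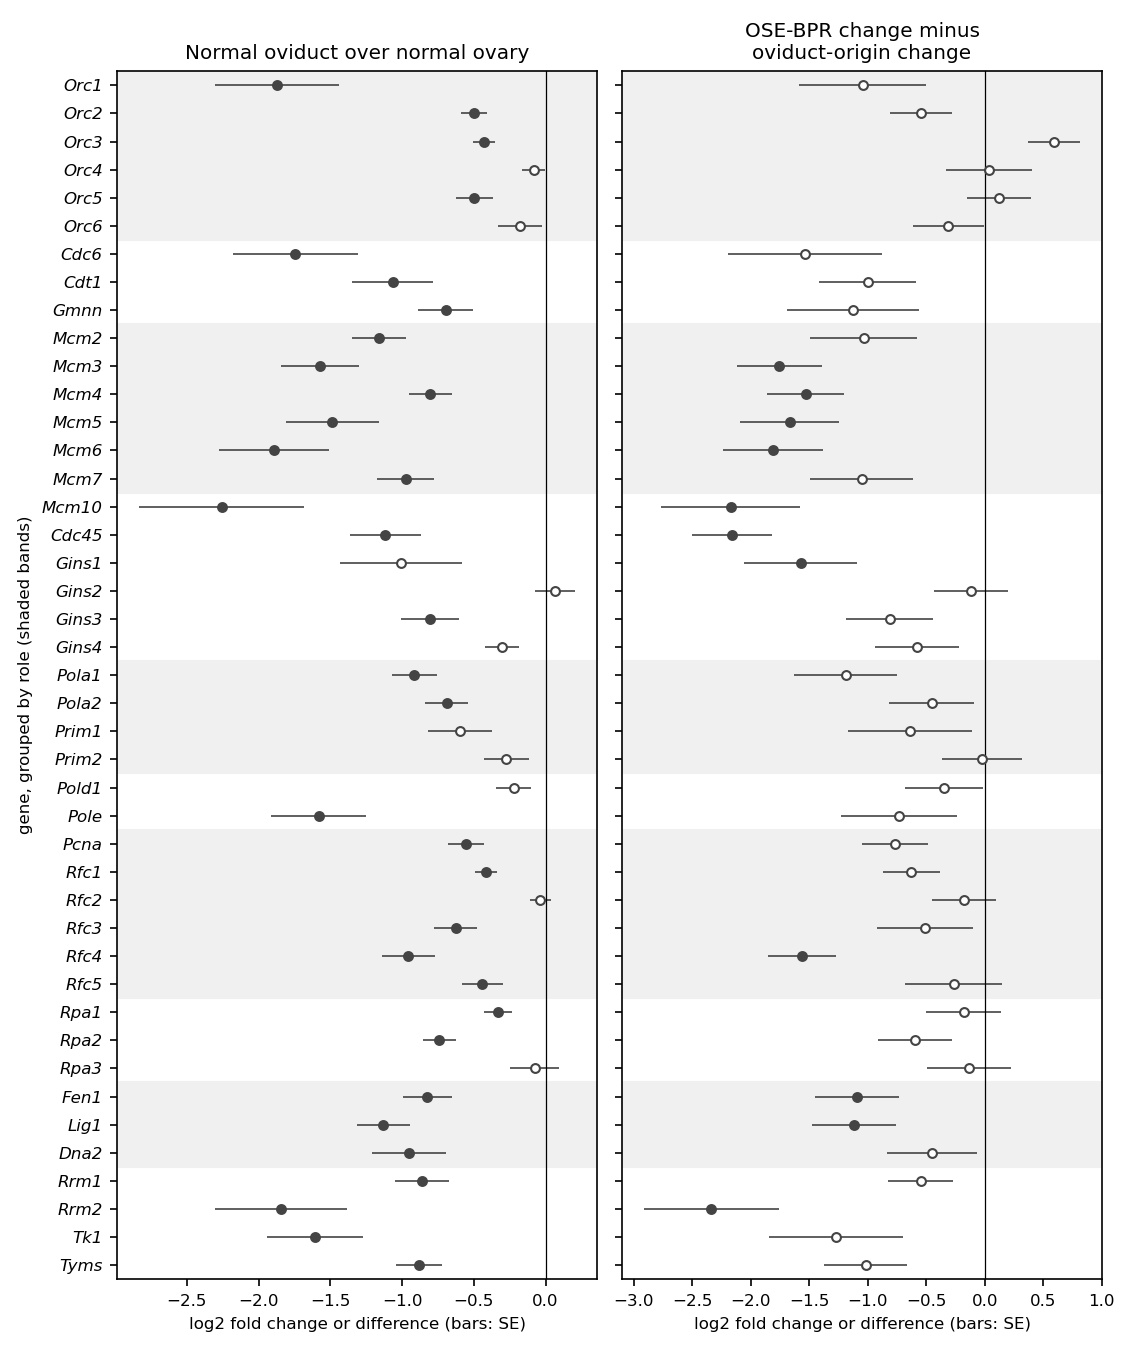
Left, log2 fold change of normal oviduct over normal ovary; right, OSE-BPR tumour-normal change minus the mean oviduct-origin change, for the 43 genes, with standard errors and calls as filled points. Nearly all points lie below 0 in both panels, with Mcm10 at -2.26 on the left and Rrm2 at -2.34 on the right.

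Set against each other directly, primary tumours of the ovarian surface and of the oviduct differed in few replication genes. In OSE-BPR GEMM tumours against the mean of the 3 oviduct models, 4 genes were higher and 2 lower (14.9% and 11.1% of all genes), and the median difference was 0.04 over the set (-0.02 to 0.15 with single libraries left out) and 0.02 over all genes. Higher were Orc3 (1.11 ± 0.15, adjusted p = 3.56e-05), Orc1 (0.91 ± 0.31, adjusted p = 0.0339), Orc5 (0.70 ± 0.19, adjusted p = 0.00894) and Pole (0.93 ± 0.29, adjusted p = 0.0245). Lower were Cdc45 (-0.96 ± 0.22, adjusted p = 0.0035) and Mcm4 (-0.64 ± 0.22, adjusted p = 0.0398). Orc3 stood at 47.4, 49.2 and 57.8 CPM in OSE-BPR GEMM tumours, against 17.9 and 17.9 CPM in Ad-BPR, 22.6, 26.1, 17.1 and 24.1 CPM in Pax8-BPR and 35.4, 33.5 and 32.8 CPM in Ovgp1-BPR GEMM tumours. Cdc45 stood at 23.9, 17.4 and 16.5 CPM in OSE-BPR GEMM tumours, against 29.2 to 54.3 CPM (median 36.6 CPM) in the 9 others. Neither gene overlapped between the 2 sides. Without OSE-BPR GEMM 2, or without OSE-BPR GEMM 3, 2 of the 6 calls were left, those on Orc3 and Cdc45. The call on Mcm4 was also lost without Ad-BPR GEMM 2, Pax8-BPR GEMM 3 or 4 or Ovgp1-BPR GEMM 2 or 3 (range -0.90 to -0.45), that on Orc1 without either Ad-BPR GEMM tumour (range 0.60 to 1.23), and that on Pole without Ad-BPR GEMM 1 (range 0.69 to 1.28).

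The allografts gave a second set of libraries for this comparison. Their donors are not given, so whether they stem from the primary tumours compared above is not known. In OSE-BPR allografts against the mean of the 3 oviduct models, 7 genes were higher and 2 lower (20.4% and 17.4% of all genes). Orc3 (1.03 ± 0.13, adjusted p = 8.76e-06), Pole (0.87 ± 0.25, adjusted p = 0.0107), Orc4 (0.65 ± 0.21, adjusted p = 0.0193), Dna2 (0.63 ± 0.20, adjusted p = 0.0181), Rpa2 (0.54 ± 0.18, adjusted p = 0.0221), Rrm1 (0.51 ± 0.15, adjusted p = 0.00905) and Orc5 (0.50 ± 0.16, adjusted p = 0.0177) were higher. Cdc45 (-0.67 ± 0.18, adjusted p = 0.0057) and Mcm4 (-0.49 ± 0.18, adjusted p = 0.043) were lower. Orc3 stood at 35.6, 44.6, 46.3, 51.6 and 56.8 CPM in OSE-BPR allografts, against 20.5, 18.9, 16.7 and 19.0 CPM in Ad-BPR, 17.1 and 24.3 CPM in Pax8-BPR and 33.6, 31.7 and 29.7 CPM in Ovgp1-BPR allografts. Its lowest OSE-BPR allograft was above every other allograft, by a small margin over the Ovgp1-BPR model. The calls on Orc4 and Orc5 were each lost without 3 of the 14 libraries (ranges 0.51 to 0.71 and 0.37 to 0.57), that on Mcm4 without 6 (range -0.67 to -0.38), that on Rpa2 without 3 (range 0.27 to 0.67), and those on Dna2 and Rrm1 without 1. Without Ad-BPR allografts 1 and 2 the count was 9, with Mcm4 lost and Orc6 gained. Without Ad-BPR allografts 3 and 4 it was 10, with Mcm4 and Rpa2 lost and Mcm2, Orc2 and Prim2 gained. Shares of all genes called without either pair are not given here. Those single libraries were OSE-BPR allograft 4, Pax8-BPR allograft 1 or Ovgp1-BPR allograft 3 for Orc4, OSE-BPR allograft 1, Pax8-BPR allograft 2 or Ovgp1-BPR allograft 3 for Orc5 and Rpa2, OSE-BPR allograft 1, 3 or 4, Ad-BPR allograft 1 or 2 or Pax8-BPR allograft 2 for Mcm4, Pax8-BPR allograft 1 for Dna2 and Pax8-BPR allograft 2 for Rrm1. Fibroblast markers (5 genes, none near 0) moved with the models, at 239 to 1670 CPM summed in OSE-BPR tumours, against 4540 to 21400 CPM in Ad-BPR and Pax8-BPR and 1010 to 2080 CPM in Ovgp1-BPR tumours. Macrophage markers (4 genes) summed to 35.6 to 152 CPM in OSE-BPR tumours, against 191 to 836 CPM in Ad-BPR and Pax8-BPR and 85.4 to 476 CPM in Ovgp1-BPR tumours. Their part in these differences was not tested, and strain and model cannot be told apart.

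Ovgp1-BPR tumours, the model whose labels carry mutant rather than deleted Trp53, were also set against the other oviduct models. Among primary tumours, 8 genes were higher and 0 lower than in the mean of Ad-BPR and Pax8-BPR (12.5% and 10.2% of all genes). These were Pold1 (0.95 ± 0.24, adjusted p = 0.00895), Lig1 (0.94 ± 0.24, adjusted p = 0.0102), Dna2 (0.81 ± 0.26, adjusted p = 0.028), Prim2 (0.70 ± 0.24, adjusted p = 0.0453), Orc3 (0.76 ± 0.17, adjusted p = 0.00375), Rfc1 (0.60 ± 0.18, adjusted p = 0.0212), Tyms (0.75 ± 0.25, adjusted p = 0.0353) and Rrm1 (0.54 ± 0.19, adjusted p = 0.0413). The median difference was 0.36 over the set and -0.01 over all genes, and that over the set was 0.12 without Ovgp1-BPR GEMM 3 and 0.18 without Ad-BPR GEMM 1. Pold1 stood at 185, 187 and 251 CPM in Ovgp1-BPR GEMM tumours, against 103 and 94.3 CPM in Ad-BPR and 132, 65.5, 135 and 136 CPM in Pax8-BPR GEMM tumours. Lig1 stood at 183, 173 and 207 CPM in Ovgp1-BPR GEMM tumours, against 89.9 and 102 CPM in Ad-BPR and 91.7, 67.5, 122 and 115 CPM in Pax8-BPR GEMM tumours. The groups did not overlap for either gene. The count rested on single libraries: it fell to 1 without Ovgp1-BPR GEMM 3, when only Orc3 was still called, to 5 without Ovgp1-BPR GEMM 2, to 4 without Ad-BPR GEMM 1 and to 3 without Ad-BPR GEMM 2. Rrm1, Prim2 and Tyms lost their call in 7, 6 and 5 of the 9 fits that left out 1 library. Markers of the ovarian surface and mesothelium (5 genes) summed to 1570 to 2140 CPM in Ovgp1-BPR GEMM tumours, against 64.3 to 665 CPM in Ad-BPR and Pax8-BPR GEMM tumours, and did not overlap. The 5 epithelial markers summed to 702 to 2230 CPM in Ovgp1-BPR GEMM tumours, against 1610 to 8130 CPM in the other models. The part of these shifts in the contrast was not tested.

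In the allografts the same contrast gave 2 higher and 5 lower genes (13.7% and 8.61% of all genes). Orc3 (0.68 ± 0.17, adjusted p = 0.00671) and Pold1 (0.68 ± 0.24, adjusted p = 0.0462) were higher. Cdc6 (-2.40 ± 0.48, adjusted p = 0.00161), Rrm2 (-1.37 ± 0.37, adjusted p = 0.0111), Orc1 (-1.16 ± 0.36, adjusted p = 0.0254), Mcm10 (-1.03 ± 0.33, adjusted p = 0.0283) and Cdc45 (-0.67 ± 0.23, adjusted p = 0.0396) were lower. Cdc6 stood at 11.0, 8.90 and 29.0 CPM in Ovgp1-BPR allografts, against 35.2, 38.9, 74.6 and 84.1 CPM in Ad-BPR and 129 and 124 CPM in Pax8-BPR allografts. Rrm2 stood at 49.3, 42.6 and 49.0 CPM in Ovgp1-BPR allografts, against 102, 73.5, 83.1 and 111 CPM in Ad-BPR and 111 and 207 CPM in Pax8-BPR allografts. For both genes every Ovgp1-BPR allograft was below every allograft of the other models. In Cdc6 the Ad-BPR allografts again parted into the pairs described above. Without Ad-BPR allografts 3 and 4 (an alternative chosen after the data were seen) 3 genes were called, Orc3, Cdc6 (-2.07, adjusted p = 0.00579) and Rrm2 (-1.33, adjusted p = 0.0252). Without Ad-BPR allografts 1 and 2, 10 were called, with Gmnn, Mcm7, Rfc3 and Tk1 gained and Pold1 lost. Shares of all genes called without either pair are again not given. In primary tumours Cdc6 (-0.99 ± 0.45, adjusted p = 0.11) and Rrm2 (-0.71 ± 0.35, adjusted p = 0.149) did not pass the threshold, and whether primary tumours and allografts differ in this contrast was not tested. The count was 3 without Pax8-BPR allograft 1 or Ovgp1-BPR allograft 1 and 2 without Ovgp1-BPR allograft 2. The call on Pold1 was lost whichever of the 9 libraries was left out (range 0.49 to 0.80), those on Cdc45, Orc1 and Mcm10 in 5, 3 and 3 of these fits, those on Orc3 and Rrm2 in 1, and that on Cdc6 in 0. Fibroblast markers summed to 1580 to 2080 CPM in Ovgp1-BPR allografts, against 5200 to 21400 CPM in Ad-BPR and Pax8-BPR allografts. Ovarian surface and mesothelium markers summed to 1100 to 3590 CPM in Ovgp1-BPR allografts, against 330 to 499 CPM in the others, and epithelial markers to 574 to 3590 CPM, against 5080 to 9500 CPM. The part of these shifts was not tested.

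**Figure D5:**
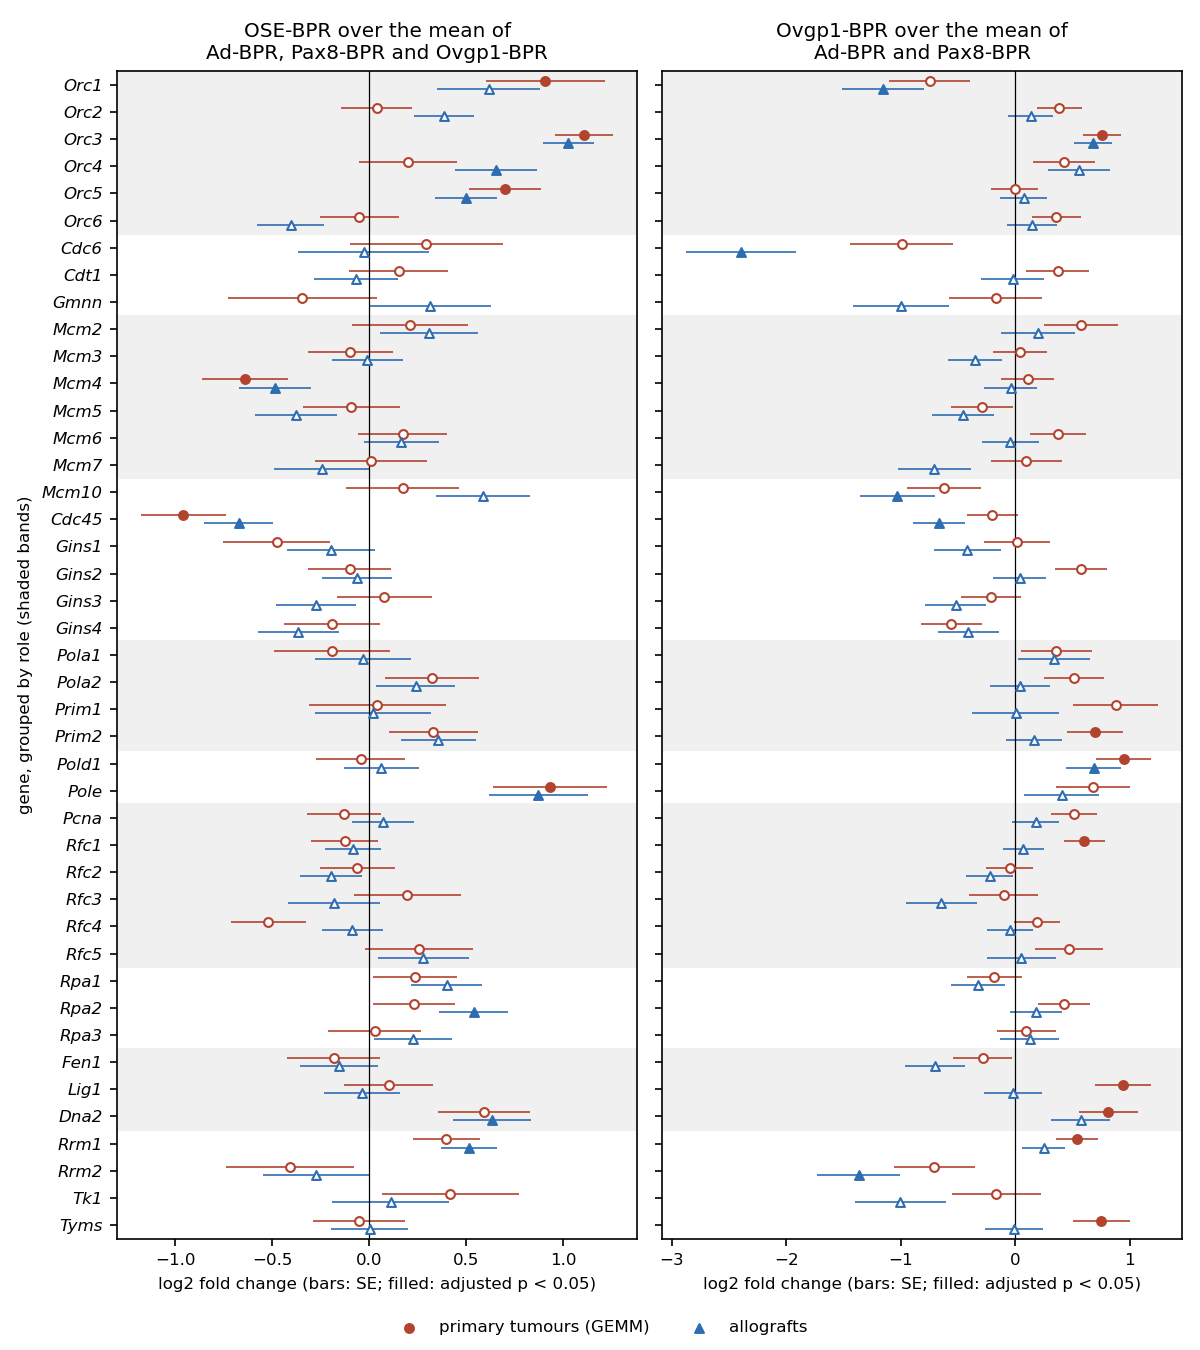
Log2 fold changes of the 43 genes between models, in primary tumours (circles) and allografts (triangles), with standard errors and calls as filled symbols. On the left Orc3 lies above 1 in OSE-BPR tumours and Cdc45 below 0; on the right Cdc6 lies at -2.40 in Ovgp1-BPR allografts.

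The remaining comparisons called no replication gene. Pax8-BPR and Ad-BPR primary tumours, which share the Brca1, Trp53 and K18GT121 alleles and differ in how Cre was delivered, gave 0 higher and 0 lower genes in the set and 0.0% of all genes in either direction, with 1531 genes and 2 members of the set at an unadjusted p under 0.05; DESeq2 also called 0 members. Pola1 had the largest difference (-1.08 ± 0.37, adjusted p = 0.544). Between their allografts 0 members were called (0.16% of all genes were higher and 0.03% lower), with 9 members at an unadjusted p under 0.05 and 1 called by DESeq2. Lig1 had the largest difference there, at 194 and 298 CPM in Pax8-BPR allografts, against 68.9, 89.96, 124 and 145 CPM in Ad-BPR allografts (1.20 ± 0.29, adjusted p = 0.0975). Allografts against primary tumours, averaged over the 4 models, gave 0 members and 0.0% of all genes in either direction, with 7 members and 1210 genes at an unadjusted p under 0.05 and 1 member called by DESeq2. The median difference was 0.20 over the set and -0.02 over all genes, and 40 of the 43 genes were above 0. Rrm2 (0.80 ± 0.20, adjusted p = 0.708) and Cdc6 (0.68 ± 0.25, adjusted p = 0.805) had the largest differences.

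Among the 26 tumours the genes differed in how much they varied. Cdc6 had the widest range, from 8.90 CPM in Ovgp1-BPR allograft 2 to 129 CPM in Pax8-BPR allograft 1, with a coefficient of variation of 70.1%. Rrm2 followed, from 24.1 CPM in OSE-BPR GEMM 1 to 207 CPM in Pax8-BPR allograft 2 (59.1%), and then Gmnn (48.9%). Rfc2 varied least (18.8%), followed by Rfc4 (20.6%), Rfc1 (20.7%) and Orc2 (21.2%). A Pax8-BPR allograft held the highest value for 17 of the 43 genes, and Pax8-BPR GEMM 1 the lowest for 13. That library also had the lowest sum of the 18 mitosis genes, at 838 CPM, against 1260 to 3450 CPM in OSE-BPR and 1370 to 1940 CPM in Ad-BPR tumours.

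Genes that work beside the set were counted in the same way, in lists that were chosen with earlier results of these data known. Of 16 genes of S-phase entry and E2F, 5 rose and 0 fell in OSE-BPR, 11 rose in Ad-BPR, 13 in Pax8-BPR and 13 in Ovgp1-BPR tumours, with 0 lower in each. E2f8 and E2f7, which encode repressor E2Fs, had the largest changes of this list in each model, at 2.39 ± 0.34 and 1.91 ± 0.29 in OSE-BPR and 4.78 ± 0.38 and 4.47 ± 0.32 in Ovgp1-BPR tumours. Of 28 measured genes for other fork and initiation factors (27 symbols, 1 of them with 2 gene IDs), 16 rose in OSE-BPR, 17 in Ad-BPR, 19 in Pax8-BPR and 21 in Ovgp1-BPR tumours, while 1 fell in each of the first 3 models and 0 in the last. Clspn, which encodes the fork protein claspin, rose by 1.45 ± 0.34 in OSE-BPR and 4.01 ± 0.37 in Pax8-BPR tumours. The gene that fell was Top1, which relaxes DNA ahead of the fork and is named here after its values were seen. Its change was -0.64 ± 0.17 in OSE-BPR and -0.58 ± 0.15 in Pax8-BPR tumours.

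Chromatin replication was similar, with 8 of 11 genes higher in OSE-BPR and 10 of 11 in each oviduct model, 0 lower. Chaf1b, a subunit of the histone chaperone that follows the fork, rose by 2.32 ± 0.37 in OSE-BPR and 4.28 ± 0.41 in Ovgp1-BPR tumours, and the chromatin remodeller gene Hells by 2.06 ± 0.40 and 4.20 ± 0.44. The 16 other nucleotide supply genes were mixed, with 5 higher and 2 lower in OSE-BPR tumours. Ad-BPR tumours had 6 higher and 1 lower, Pax8-BPR tumours 9 higher and 0 lower, and Ovgp1-BPR tumours 6 higher and 2 lower. Those that fell, named after their values were seen, were Umps (-0.99 ± 0.23) and Ctps (-0.68 ± 0.23) in OSE-BPR and Tk2 in Ad-BPR tumours. In Ovgp1-BPR tumours they were Mthfd1 (-1.03 ± 0.33) and Tk2 (-0.65 ± 0.23). Dck, the deoxycytidine salvage kinase, rose by 1.79 ± 0.30 in OSE-BPR and 3.52 ± 0.32 in Ovgp1-BPR tumours, and Dut, which keeps uracil out of DNA, by 1.14 ± 0.24 and 2.53 ± 0.25. Of 10 replication stress checkpoint genes, 4 rose and 1 fell in OSE-BPR, 5 rose in Ad-BPR and Pax8-BPR, and 6 in Ovgp1-BPR tumours. Wee1, the kinase that holds back mitosis, rose by 2.05 ± 0.34 in OSE-BPR and 3.10 ± 0.35 in Ovgp1-BPR tumours, and Rad17, which loads the checkpoint clamp, fell in OSE-BPR tumours (-0.79 ± 0.21). Of the 18 mitosis genes 11 rose in OSE-BPR and 18 in each oviduct model, with medians of 1.24 in OSE-BPR, 3.17 in Ad-BPR, 3.25 in Pax8-BPR and 3.59 in Ovgp1-BPR tumours. Of 6 quiescence genes, 2 rose in OSE-BPR, 1 rose and 1 fell in Ad-BPR, 3 rose and 1 fell in Pax8-BPR, and 2 rose in Ovgp1-BPR tumours. In a list this short, a count of 1 lies near the share over all genes. The cell-cycle inhibitor gene Cdkn1c rose by 3.92 ± 1.22 in OSE-BPR tumours, and Cdkn1b by 1.28 ± 0.30 in OSE-BPR and 2.03 ± 0.31 in Ovgp1-BPR tumours. The growth arrest gene Gas1 fell in Ad-BPR tumours and in Pax8-BPR tumours (-2.14 ± 0.55).

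The lists that rest on the oviduct were counted again without oviducts 1 and 3, in the order Ad-BPR, Pax8-BPR and Ovgp1-BPR. The S-phase entry and E2F list then had 7, 11 and 10 genes higher and 0 lower, and the other fork and initiation factors had 14, 15 and 16 higher and 0 lower, Top1 no longer being called (-0.52, -0.54 and -0.44). Chromatin replication again had 10 higher in each. The other nucleotide supply genes had 3, 4 and 4 higher and 0 lower, with the calls on Tk2 and Mthfd1 lost, and the replication stress checkpoint had 3 higher in each. The mitosis genes had medians of 4.67, 4.78 and 4.83. In oviduct against ovary their median was -3.52, against -2.01 with all oviducts. The spread in that fit came from ovaries alone, so its calls are not counted. The quiescence genes had 1, 1 and 2 higher, and Gas1 fell in Ad-BPR tumours (-3.34, adjusted p = 0.025) but did not pass the threshold in Pax8-BPR tumours (-2.25, adjusted p = 0.0533).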

How the data were processed

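Total RNA of 26 mouse tumours and 6 normal tissues was sequenced, and the values used are gene-level RSEM output. Per the submitters' processing notes, the tools included bcl2fastq, cutadapt 1.18, STAR 2.7.0f, RSEM 1.3.1 and Picard, with GRCm38 (mm10). The expected counts deposited by the authors were rounded to whole numbers here, which changed 6.98% of the values of the 43 genes. The TPM values deposited by the authors were used as they stood. Groups came from the sample labels, and all 55450 gene IDs matched GENCODE M21.

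Counts were fitted in R 4.3.3 with edgeR 4.0.16 (TMM, filterByExpr, quasi-likelihood F test), and p-values were adjusted by Benjamini-Hochberg over all genes tested. Comparisons with normal tissue used all 32 libraries (20887 genes), comparisons between tumours the 26 tumours (20000 genes), and oviduct against ovary the 6 normal libraries (17334 genes). Alternatives were RLE scaling, no filter on low counts, DESeq2 1.42.0, limma 3.58.1 on log2(TPM + 1), voom with quality weights, other sets of libraries in the fit, and each library left out. Oviducts 1 and 3, and either pair of Ad-BPR allografts, were also left out, alternatives chosen after the data were seen. The script was tested on simulated data.

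The 43 genes, the lists and the tests were chosen with earlier results of these data known. In each role the genes with the largest and the smallest mean change over the 4 comparisons with normal tissue, and Cdt1 and Gmnn, are given library by library. Other genes are named where they had the largest or smallest change of a comparison or went against its direction, and up to 4 called genes of each list. Where a gene outside this rule is named, it was chosen after its values were seen. No 2 libraries of a group differed by as little as sampling noise (lowest chi-square per degree of freedom 10.085 over 39 pairs). Nothing states that tumours of a group came from separate animals in every case, so p-values measure the spread between these samples. The titles of the normal samples name the same 3 animals for both organs. The deviations of an animal's ovary and oviduct from their group means had correlations of -0.084, -0.044 and 0.06.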

Additional observations from a re-analysis of the deposited data

Results flagged for a closer look

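Among groups of 4 or 5 libraries, 60 group and gene combinations were examined for a library far from the others, and chance flags about 1 in 20. A pair of libraries was flagged, no more than chance alone would give at that rate. Pold1, the catalytic subunit of polymerase delta, was at 65.5 CPM in Pax8-BPR GEMM 2, far below the 132 to 136 CPM of the other 3 Pax8-BPR GEMM tumours. Fen1, the flap endonuclease gene, was at 91.9 CPM in OSE-BPR allograft 1, far above the other 4 OSE-BPR allografts, and this library also had the highest sum of the 43 genes.

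In an interaction test, 11 genes changed less in OSE-BPR GEMM tumours over ovary than in the mean of the 3 oviduct models over oviduct. Of all genes, 5.78% were lower and 8.03% higher by this test. The difference also holds the levels of the normal organs and the strain, whose part was not tested. The differences on the log2 scale were -1.755 for Mcm3, -1.5296 for Mcm4, -1.6667 for Mcm5 and -1.8072 for Mcm6. For the helicase activators they were -2.1713 for Mcm10, -2.1623 for Cdc45 and -1.5739 for Gins1. Rfc4 differed by -1.5615, Fen1 by -1.0928, Lig1 by -1.1181 and Rrm2 by -2.3372. Without oviducts 1 and 3, which carry ovarian transcripts, the difference was -4.27 for Mcm10, -3.70 for Rrm2, -2.90 for Mcm6 and -2.63 for Gins1. These are among the genes that moved by more than 1.5 times in that fit, which holds 1 oviduct. Mcm3, Mcm4, Cdc45, Rfc4, Fen1 and Lig1 moved by less, and the calls on Fen1 and Lig1 were lost.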

How the results depend on the processing

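In the 4 comparisons of primary tumours with normal tissue, the count of called replication genes stayed within 1.5 times its value under every alternative run. The count ran from 26 to 32 in OSE-BPR, 35 to 37 in Ad-BPR, 38 to 40 in Pax8-BPR and 38 to 39 in Ovgp1-BPR tumours when each library was left out. The interaction gave 20 genes with voom quality weights (19 lower and 1 higher) and 13 with DESeq2 (12 lower and 1 higher), against 11 (all lower), the higher one being Orc3 in both, and 7 to 13 with single libraries left out. OSE-BPR against the oviduct models gave 2 to 8 genes in primary tumours and 6 to 11 in allografts with single libraries left out. Ovgp1-BPR against Ad-BPR and Pax8-BPR primary tumours gave 3 genes with no filter on low counts, 15 with limma on log2(TPM + 1) and 13 with voom quality weights (11 higher and 2 lower), against 8 (all higher), and 1 to 9 with single libraries left out. The same contrast in allografts gave 11 with voom quality weights and 3 without Ad-BPR allografts 3 and 4, against 7, and 2 to 9 with single libraries left out. Pax8-BPR against Ad-BPR allografts gave 1 gene with DESeq2 and 1 in the fit on all 32 libraries, and allografts against primary tumours 1 with DESeq2, against 0 in each. The share of all genes called was not set beside these counts. A shift in the set can therefore not be told from a shift in calls over all genes. The cause of these shifts was not tested. With the animal as replicate block, 32 genes were lower in oviduct than in ovary, against 33, with 22 in the fit on all 32 libraries and 26 to 34 with single libraries left out. Of the changes of single genes, 753 of those refitted under other settings kept their direction and their side of the threshold, 39 were no longer called, 14 became called and 1 reversed, that of Rfc1 in OSE-BPR tumours, at 0.107 with limma on log2(TPM + 1). With single libraries left out, 735 were kept, 86 were no longer called and 1 became called. Groups of 2 to 5 libraries limit the precision of every value, and the Ad-BPR GEMM and Pax8-BPR allograft groups hold 2 each.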
